A study of Mus musculus with 4 samples.

Results

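A set of 10 genes that the tumour suppressor p53 can switch on, and whose products take part in cell death, was followed in 4 single-cell libraries of mouse intestinal epithelium. The genes were Bbc3, Pmaip1, Bax, Fas, Tnfrsf10b, Eda2r, Perp, Aen, Ei24 and Gdf15, found by their symbols in the feature lists of all 4 libraries. All 10 had a row, and each was on 1 row only of the 31054 features listed. All cells came from mice of genotype Bmi1-GFP, in which a green fluorescent protein reports the Bmi1 locus, so the controls carry the reporter too. The 4 groups, of 1 library each, were embryos at day 12.5 (E12.5), embryos at day 17.5 (E17.5), adults, and adults that had been irradiated. Flow cytometry was used to isolate the cells, and their RNA was counted with the 10x Chromium 3' kit as UMIs, each UMI standing for 1 captured RNA molecule. The radiation dose, the time from exposure to sampling, the adults' age, the number of animals and the sorting gate are not given in the sources used here.

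When radiation breaks DNA, kinases stabilise p53, which then binds DNA as a tetramer and switches on genes for cell cycle arrest, for its own feedback control and for death. In the death branch, BH3-only proteins release the pore-forming BAX and BAK at the mitochondrial outer membrane, cytochrome c escapes and caspases are activated, while death receptors at the cell surface start a parallel route. In the small intestine this response is known above all from the dividing cells of the crypt, and hormone-secreting enteroendocrine cells and chemosensory tuft cells have largely left the cell cycle.

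The p53 tetramer reads a pair of short half-sites, so the DNA just upstream of the members was examined for the p53 half-site consensus, which reads the same on both strands. RefSeq (GRCm38.p6, the build named mm10 in the submitters' processing notes) gave 11 promoters for 7 of the 10 members, namely Bbc3, Bax, Fas, Eda2r, Aen, Ei24 and Gdf15. An exact half-site lay within the 250 bases before the start in 3 of the 11 promoters, those of Bax, Aen and Ei24, against 7.13% of all 32851 promoters in the table. A pair of exact half-sites with a gap of 0 to 13 bases was found in 0 of the 11, against 0.0639% of all promoters. The promoter of Bax is shown whole with its match in capitals, that of Eda2r because Eda2r had the highest irradiated to adult ratio of the members, and the matches in Aen and Ei24 are shown with their flanks. Each is written 5′ to 3′ on the strand of its gene. The spans are chr7:45466899-45467148 for Bax (minus strand), chrX:97377210-97377459 for Eda2r (minus strand), chr7:78895927-78895956 for Aen (plus strand) and chr9:36797335-36797364 for Ei24 (minus strand).
Bax: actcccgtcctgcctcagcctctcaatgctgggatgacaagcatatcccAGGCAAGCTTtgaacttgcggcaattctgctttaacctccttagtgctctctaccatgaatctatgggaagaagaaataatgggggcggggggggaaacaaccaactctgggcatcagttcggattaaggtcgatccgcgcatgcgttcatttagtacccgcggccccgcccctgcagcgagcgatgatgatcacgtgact
Eda2r: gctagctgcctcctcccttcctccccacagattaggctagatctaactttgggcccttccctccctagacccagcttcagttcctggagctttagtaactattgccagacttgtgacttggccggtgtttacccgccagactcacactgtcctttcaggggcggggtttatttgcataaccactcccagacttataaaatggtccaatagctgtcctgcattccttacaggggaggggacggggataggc
Aen: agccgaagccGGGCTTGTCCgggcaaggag
Ei24: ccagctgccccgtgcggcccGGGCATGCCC
The first base of the match lay 201 bases before the start in Bax, 121 before a start of Aen and 10 before that of Ei24. These matches describe letters in a short window, and sites elsewhere in the genes were not examined.

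Between 5216 and 6287 barcodes were deposited per library, holding 38648331 (adult), 50761353 (irradiated adult), 90674425 (E12.5) and 77677622 (E17.5) UMIs. After cells with under 500 genes or over 20% mitochondrial UMIs and likely doublets were removed, the epithelial cells left numbered 4050 (E12.5), 3475 (E17.5), 3597 (adult) and 3031 (irradiated adult). The share of barcodes that passed the filter was 60.3% for adult and 53.1% for irradiated adult cells, and the median epithelial cell held 3606 and 8554 UMIs. Pairs of libraries shared 6 to 12 barcode sequences. Levels are given as CPM, UMIs of a gene per 1000000 UMIs summed over the cells named, with an exact 95% Poisson interval. With 1 library per group there is no spread between replicates and no test, and every interval covers counting error only. A gene is called higher or lower where log2((irradiated CPM + 1)/(adult CPM + 1)) passes a fold of 1.5, among genes with at least 20 UMIs over both libraries. The added 1 CPM understates the change of low genes. Cells were grouped into classes by clustering without the members among the clustering genes, and each class takes its name (enteroendocrine-like, for instance) from marker genes. Clusters that stayed unnamed were kept among the epithelial cells. They held 139 (E12.5), 880 (E17.5), 128 (adult) and 371 (irradiated adult) of the cells counted above. Of the 987 Gdf15 UMIs in the E17.5 epithelial cells, 324 lay in such clusters.

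Over all epithelial cells, 8 of the 10 members were higher in the irradiated adult than in the adult library and 0 were lower. Of all 14663 genes tested, 8.06% were higher and 12.6% lower. At a fold of 2, 6 members were higher, against 2.67% of genes. The median log2 ratio was 1.26 over the members and -0.05 over all genes tested. Summed, the members took 297 CPM (interval 291 to 303) in adult cells and 724 (715 to 732) in irradiated ones. The embryonic libraries lay between, with 376 (371 to 380) for E12.5 and 417 (412 to 422) for E17.5. The irradiated library thus held the highest summed level of the 4 and the unirradiated adult the lowest. Bax alone made up 219 (E12.5), 234 (E17.5), 104 (adult) and 302 CPM (irradiated adult) of these sums. The place of the adult library below both embryonic ones rested on Bax. The adult libraries also differed in marker RNA, given here from adult to irradiated cells. Goblet markers summed to 4797 and 22521 CPM, Paneth markers to 74466 and 119782, and enteroendocrine markers to 11881 and 21592. Enterocyte markers summed to 8291 and 3314, tuft markers to 2743 and 1346, and stem cell markers to 884 and 166. Such sums follow the depth of cells as well as their number. Paneth-like cells numbered 215 and 98, with medians of 2949 and 97751 UMIs. Enteroendocrine-like cells numbered 2093 and 1804, with medians of 3123 and 9906 UMIs. How far these differences entered the pooled levels was not tested, and levels within classes follow.

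**Figure D1:**
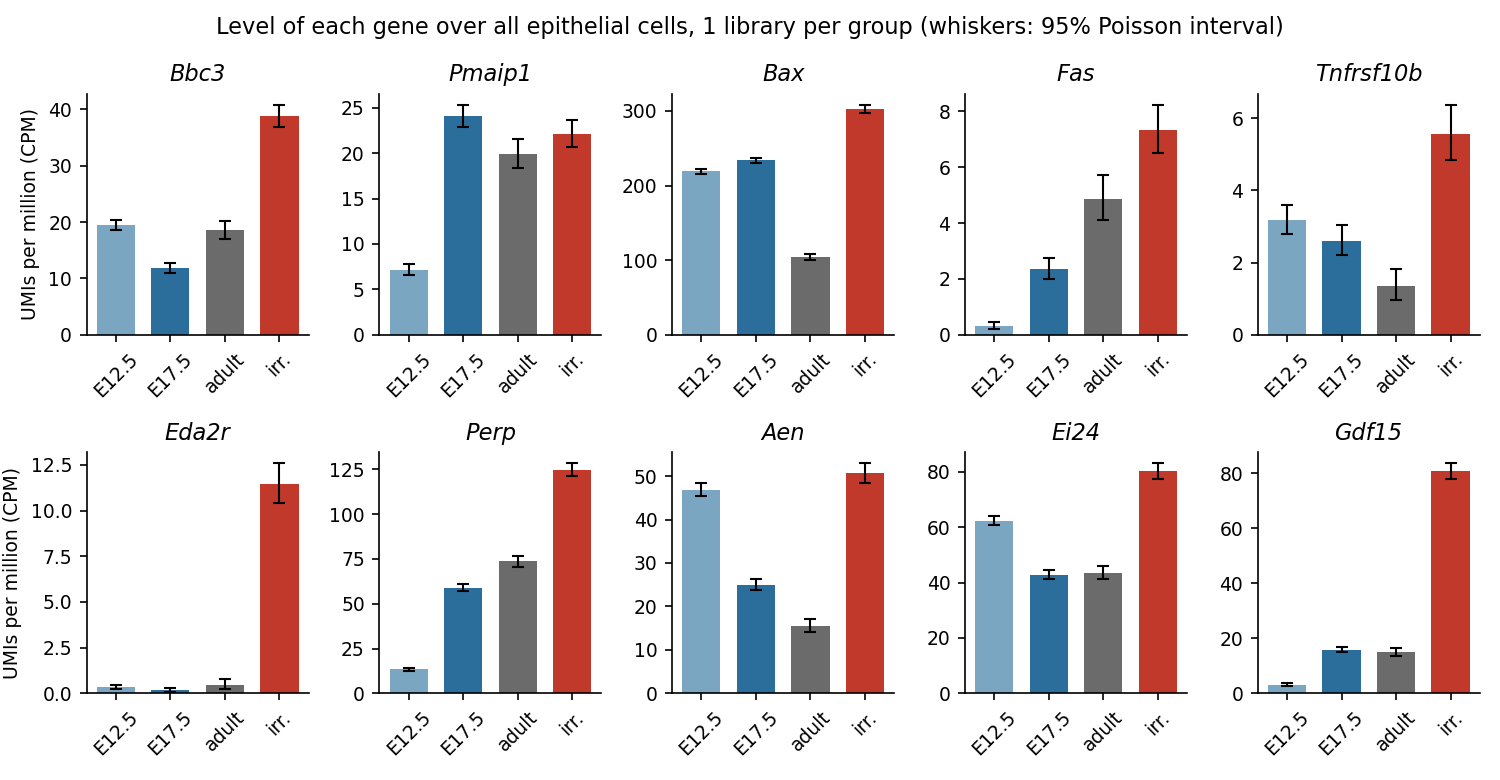
Level of each of the 10 genes in CPM over all epithelial cells of the E12.5, E17.5, adult and irradiated adult (irr.) libraries, each panel on its own scale from 0. Bars are the single library of each group and whiskers the 95% Poisson interval. The irradiated bar is the tallest in every panel except that of Pmaip1, where E17.5 is at 24.1 CPM and the irradiated adult at 22.1.

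Levels are given from here in the order E12.5, E17.5, adult, irradiated adult, and gene positions are those of GENCODE M21 on GRCm38. The BH3-only genes, first in the pathway, differed from each other. Bbc3 (chromosome 7, 16308393 to 16318205, plus strand) encodes PUMA, a protein that binds and neutralises the protective BCL2 proteins. It stood at 19.5, 11.8, 18.6 (17.1 to 20.2) and 38.8 (36.8 to 40.8) CPM, so that the irradiated library was the high one, 2.09-fold the adult level (counting interval 1.89 to 2.31). Pmaip1 (chromosome 18, 66458533 to 66465565, plus strand), which encodes NOXA, an inhibitor of MCL1, stood at 7.17, 24.1, 19.9 and 22.1 CPM. Its ratio of irradiated to adult was 1.11 (0.999 to 1.24), which is under the fold, and its low library was E12.5.

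Bax (chromosome 7, 45461697 to 45466898, minus strand), the pore-forming effector of the mitochondrial route, stood at 219 (216 to 223), 234 (230.0 to 238), 104 (100.3 to 108) and 302 (297 to 308) CPM. The adult library was the low one, less than either embryonic library, and the irradiated level was 2.91-fold the adult one (2.80 to 3.03). Bax overlaps the listed gene Gm45808, annotated on the same strand, so their reads may not have been told apart in counting.

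The 3 death receptors rested on few UMIs. Fas (chromosome 19, 34290666 to 34327772, plus strand), the receptor of FAS ligand, stood at 0.30 (25 UMIs), 2.35, 4.87 and 7.33 CPM. Its irradiated to adult ratio of 1.51 (1.23 to 1.85) was just short of the fold on the scale with 1 CPM added, at a log2 ratio of 0.50. Tnfrsf10b (chromosome 14, 69767472 to 69784411, plus strand), the mouse receptor of the TRAIL ligand, stood at 3.18, 2.61, 1.34 (40 UMIs) and 5.57 CPM (216 UMIs), a ratio of 4.15 (2.95 to 5.97). Eda2r (chromosome X, 97333840 to 97377216, minus strand), the receptor of the A2 form of ectodysplasin, stood at 0.33 CPM (27 UMIs), 0.18 (11 UMIs), 0.47 (14 UMIs) and 11.5 (444 UMIs), a ratio of 24.4 (14.4 to 44.9). All 3 libraries without irradiation were under 1 CPM for Eda2r, and it ranked 27 of the 14663 genes by log2 ratio.

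The last 4 members act at other points. Perp (chromosome 10, 18845020 to 18857073, plus strand), a membrane protein of desmosomes that can also promote death, stood at 13.4, 58.8, 73.6 and 125 CPM, a ratio of 1.69 (1.61 to 1.78). Aen (chromosome 7, 78895854 to 78911209, plus strand), a nuclease that p53 induces during apoptosis, stood at 46.9, 24.9, 15.5 and 50.6 CPM, a ratio of 3.25 (2.94 to 3.61), so that E12.5 lay close to the irradiated adult and the unirradiated adult was lowest. Ei24 (chromosome 9, 36779159 to 36797393, minus strand), a protein of the endoplasmic reticulum, stood at 62.3, 42.9, 43.5 and 80.2 CPM, a ratio of 1.84 (1.73 to 1.97). It overlaps Gm26787 on the other strand. Gdf15 (chromosome 8, 70629393 to 70632456, minus strand), a secreted stress cytokine of the TGF-beta family that acts on appetite through a receptor in the hindbrain, stood at 3.20, 15.9, 14.9 and 80.7 CPM, a ratio of 5.42 (4.90 to 5.99).

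Without irradiation the members differed in direction over the stages. From E12.5 to E17.5, 4 members were higher (Pmaip1, Fas, Perp and Gdf15), 2 were lower (Bbc3 and Aen) and 4 were neither, where 21.6% of 16006 genes were higher and 29.4% lower. From E17.5 to the adult, 2 were higher (Bbc3 and Fas), 3 were lower (Bax, Tnfrsf10b and Aen) and 5 were neither, where 22.9% of 15289 genes were higher and 26.3% lower. These stages also differ in which cell classes they hold, and no named class was held by all 4 libraries.

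Enteroendocrine-like cells were the largest class of both adult libraries, with 2093 adult and 1804 irradiated cells. All 13 enteroendocrine marker genes were detected in both, with a summed level of 28432 and 34262 CPM. In these cells 8 of the 10 members were higher and 0 lower, where 6.48% of 13462 genes tested were higher and 8.6% lower. The median log2 ratio was 1.23 over the members and 0.04 over all genes. At a fold of 2, 6 members were higher, against 1.96% of genes.

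**Figure D2:**
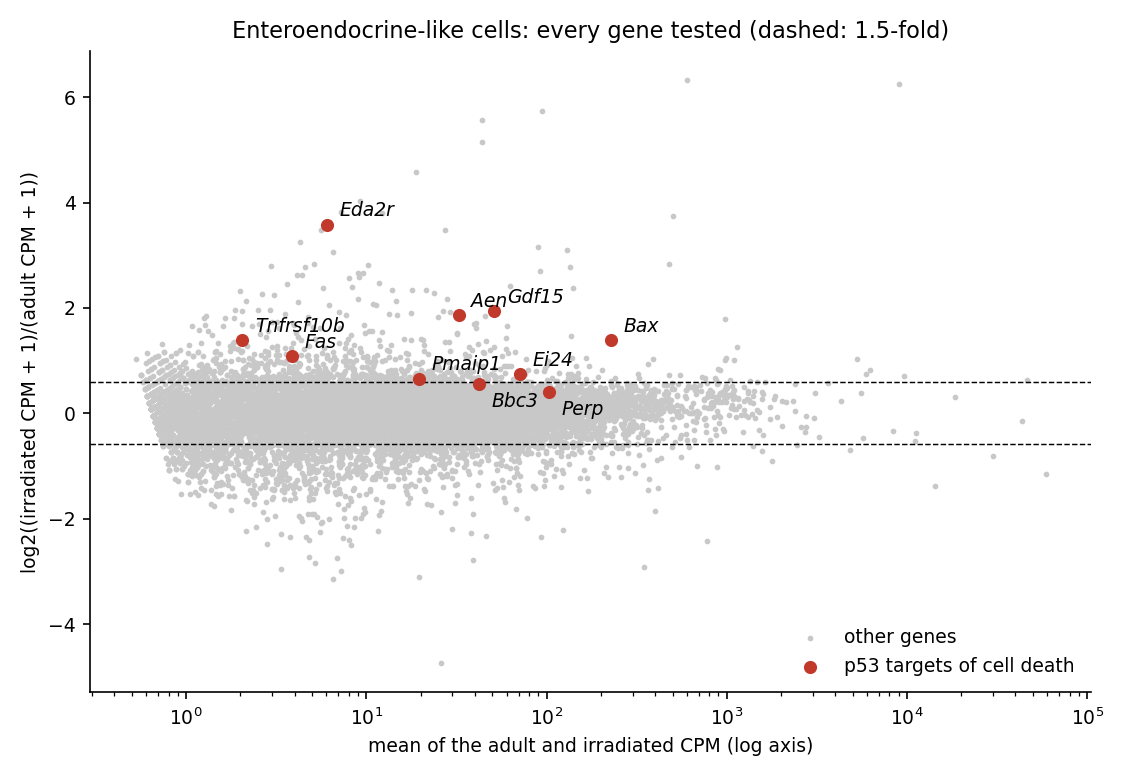
Each point is 1 of the 13462 genes tested in enteroendocrine-like cells, with the mean of its adult and irradiated CPM on a log axis and its log2 ratio of irradiated over adult, 1 CPM added. The 10 members are red and the dashed lines mark 1.5-fold. Eda2r is highest at 3.58, Bbc3 and Perp lie below the upper line at 0.56 and 0.40, and no member lies below 0.

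Adult and irradiated levels follow in that order. Among the BH3-only genes in these cells, Bbc3 stood at 34 CPM (398 UMIs) and 50.6 (962 UMIs), 1.49-fold (1.32 to 1.68) and just under the call. Pmaip1 stood at 14.9 CPM (175 UMIs) and 24.1 (458 UMIs), 1.61-fold (1.35 to 1.93) and just over it. These neighbours on either side of the threshold had overlapping counting intervals. The E17.5 enteroendocrine-like cells, 621 cells, held 23.1 CPM of Bbc3 and 8.07 of Pmaip1, below both adult libraries for each gene.

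Bax stood at 126 CPM (1476 UMIs) and 331 (6300 UMIs), 2.63-fold (2.48 to 2.79). The E17.5 cells held 325 CPM of Bax (307 to 343), whose interval overlaps the irradiated one (323 to 340) and not the adult one (120 to 133). Of the receptors, Fas stood at 2.13 CPM (25 UMIs) and 5.63 (107 UMIs), 2.64-fold (1.69 to 4.26), with 0.81 at E17.5. Tnfrsf10b stood at 0.68 CPM (8 UMIs) and 3.42 (65 UMIs), 5.01-fold (2.40 to 12.1), with 0.54 at E17.5. Eda2r had 1 UMI in the adult cells and 228 UMIs in the irradiated ones, 0.085 and 12 CPM, a ratio of 140.5 with a counting interval of 25 to 5573, and 0 UMIs at E17.5. By log2 ratio it ranked 11 of the 13462 genes.

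Perp stood at 88.2 CPM and 117, 1.33-fold (1.23 to 1.43), and was not called, with 40.6 at E17.5. Aen stood at 13.5 CPM (158 UMIs) and 51.7 (984 UMIs), 3.84-fold (3.24 to 4.57), with 14.5 at E17.5. Ei24 stood at 52.8 CPM and 89.2, 1.69-fold (1.54 to 1.85), with 82.0 at E17.5. Gdf15 stood at 20.7 CPM (242 UMIs) and 81.8 (1555 UMIs), 3.96-fold (3.46 to 4.55), with 10.5 at E17.5. Fas, Tnfrsf10b, Aen, Eda2r and Gdf15, each at least 2-fold higher, had an E17.5 level near or below the adult one, whereas for Bax and Ei24 the adult library was the low one of the 3.

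Several measures other than the members differed between the same cells. The median UMI count was 3123 in the adult and 9906 in the irradiated cells, and the median mitochondrial share was 7.97% and 4.53%. The 10 Paneth marker genes summed to 4708 and 2460 CPM, and the reporter eGFP stood at 1.88 CPM (22 UMIs) and 16.4 (311 UMIs). The irradiated class also held a cluster of 157 cells led by Sst and Iapp whose adult counterpart stayed unnamed, and a list of pancreatic islet markers that includes Iapp summed to 21.6 and 1202 CPM. Their part in the result was not tested. In cells of 3000 to 10000 UMIs alone, an alternative chosen after seeing the data, 8 members were again higher, against 11.8% of genes. In irradiated cells without an eGFP UMI, also chosen after seeing the data, 9 were higher, against 6.4% of genes.

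The enteroendocrine-like class is made of clusters led by different hormone genes, of which 6 adult and 8 irradiated ones held at least 50 cells. For 5 members every irradiated cluster lay above every adult cluster, which held for 0.483% of the 13462 genes. These were Bax (52.9 to 173 CPM in adult clusters, 174 to 453 in irradiated ones), Bbc3 (17.2 to 38.0 and 40.7 to 66.3), Tnfrsf10b (0 to 1.78 and 1.87 to 7.73), Aen (9.79 to 19.996 and 25 to 71.2) and Eda2r (0 to 0.44 and 5.24 to 16.6). The ranges overlapped for Pmaip1 (1.5 to 29.6 and 9.88 to 52.4), Fas (0 to 8.32 and 0.93 to 17.1), Perp (28.9 to 145 and 41.9 to 171), Ei24 (31.6 to 68.7 and 47.5 to 101) and Gdf15 (3.70 to 50.7 and 23 to 183). Gdf15 was highest in irradiated clusters led by Afp and Ucn3 (183 CPM) and by Gcg and Ghrl (182 CPM), and lowest in that led by Cartpt (23 CPM). For Bax the gap was small, 173 CPM in the highest adult and 174 in the lowest irradiated cluster. The unnamed adult cluster, left out here, held Tnfrsf10b at 1.95 CPM (2 UMIs), above the lowest irradiated cluster at 1.87. The separation of the 5 members also depended on clustering each library alone. In the 7 enteroendocrine-like clusters found when both adult libraries were clustered together, Aen alone of the 5 stayed apart (8.11 to 19.6 and 35.5 to 71.4 CPM). There the ranges overlapped for Bax (52.4 to 167 and 147 to 453), Bbc3 (14.1 to 38.2 and 30.4 to 67.8), Tnfrsf10b (0 to 1.78 and 0 to 7.69) and Eda2r (0 to 2.03 and 0 to 15.0 CPM).

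In that joint clustering of the 2 adult libraries, made without a correction for library, 11 clusters held at least 50 cells of each. These were 7 enteroendocrine-like, 3 tuft-like and 1 led by Sst and Iapp that stayed unnamed. Clusters mostly of 1 library were not compared, such as those led by Ghrl (16 adult and 251 irradiated cells) and by Olfm4 (295 and 0). In every one of the 11 the summed members were higher in irradiated cells. They stood at 235 (adult) and 365 CPM (irradiated) in the cluster led by Nts and at 465 and 870 CPM in that led by Cartpt, and the Poisson intervals did not overlap in any of them. Bax made up much of these sums, and sums without Bax were not examined. In the cluster led by Nts, 2 of 5 tested members were higher, Bax (77.0 and 147 CPM) and Gdf15 (26.3 and 40.5), and 0 were lower. Bbc3 stood there at 30.4 CPM in both libraries, and Ei24 at 34.5 and 35.5. The shares of all genes called higher and lower were 8.73% and 13.1% (led by Pclo), 9.45% and 3.82% (led by Cartpt), 12.2% and 6.99% (led by Pyy), 9.66% and 4.3% (led by Cyp2j5), 20.1% and 13.9% (led by Stxbp5l), 11.7% and 5.16% (led by Gip), 11.7% and 7.89% (led by Sst) and 12% and 18.2% (led by Nts). In the tuft-like clusters they were 18.8% and 19.2% (led by Rgs22), 16% and 6.19% (led by Folr1) and 23.4% and 19% (led by Ltc4s). Bax was called higher in 11 of 11 clusters, with log2 ratios from 0.92 to 1.91. Gdf15 was higher in 8 of the 8 clusters in which it had 20 UMIs, Aen in 7 of 7 and Eda2r in 4 of 4, and Aen and Gdf15 were above the adult level in all 11. Ei24 was higher in 5 of 10, Bbc3 in 3 of 9, Perp in 2 of 11 and lower in 1 (led by Rgs22, with 5 irradiated UMIs), Fas in 2 of 2, Tnfrsf10b in 1 of 1 and Pmaip1 in 1 of 9.

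**Figure D3:**
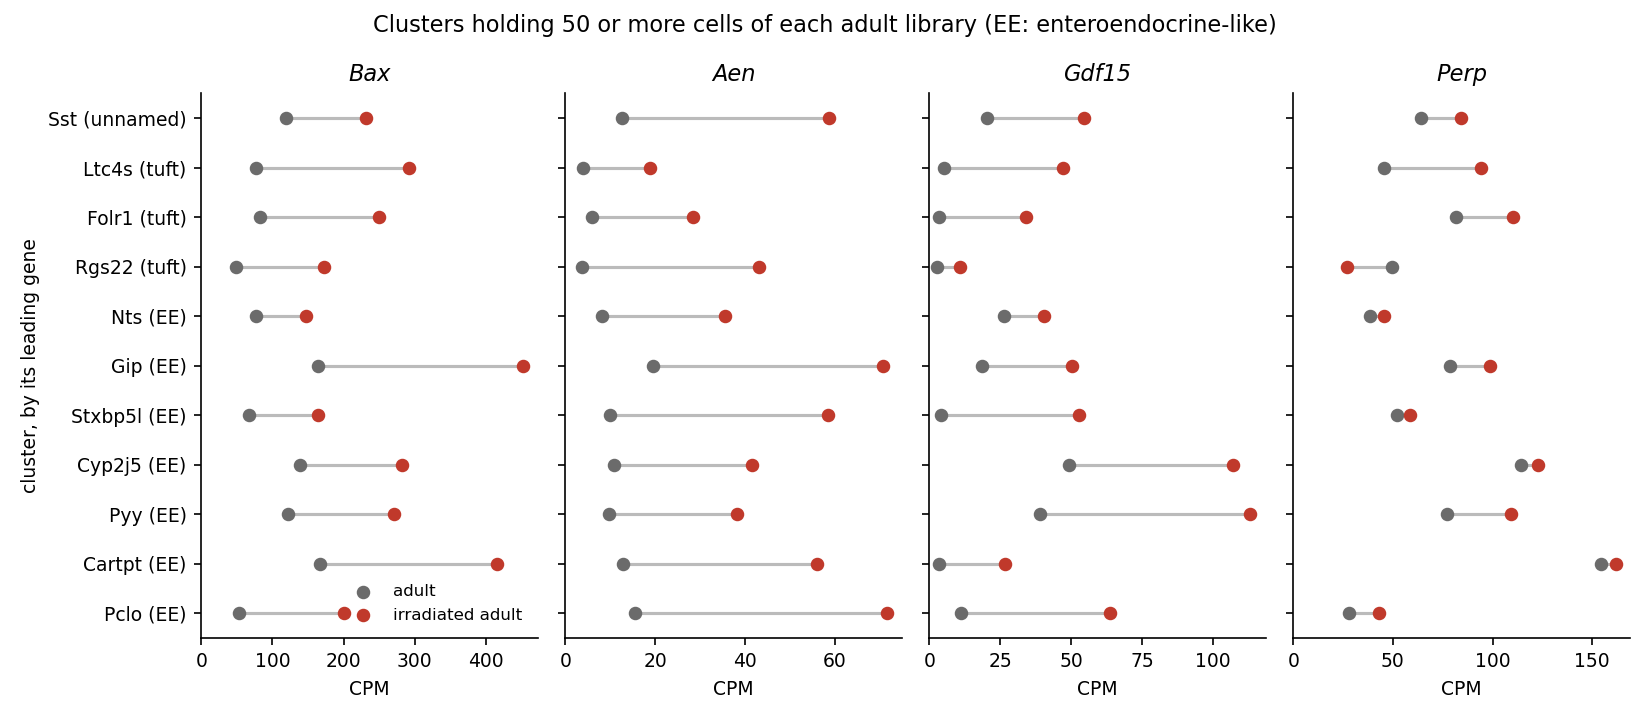
CPM of Bax, Aen, Gdf15 and Perp in the 11 clusters that hold at least 50 cells of each adult library, grey for adult and red for irradiated cells, joined by a line and labelled by the leading gene (EE, enteroendocrine-like). Bax, Aen and Gdf15 lie to the right in irradiated cells in all 11 clusters, and Perp lies to the left in the tuft-like cluster led by Rgs22.

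The single Pmaip1 call came from the cluster led by Gip, the gene of the incretin GIP, where it stood at 2.01 CPM (4 UMIs) and 9.22 (18 UMIs). This cluster also held the lowest adult Pmaip1 level of the 7 enteroendocrine-like clusters and the highest irradiated Bax level, 453 CPM. The clusters led by Pclo and by Stxbp5l were shallow, with medians of 2324 and 3108.5 UMIs in the adult, and still showed Bax at 52.4 (adult) and 200.1 CPM (irradiated), and at 67.8 and 164 CPM.

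There were 974 adult and 274 irradiated tuft-like cells. Of 9 members with 20 UMIs, 8 were higher and 0 lower, where 13.6% of 9629 genes were higher and 6.61% lower. At a fold of 2, 7 members were higher, against 4.09% of genes. With TMM factors those shares became 8.31% and 10.3%, the median of all genes moved from 0.11 to -0.05, and 7 members were higher. Markers of other classes differed too in these cells. From adult to irradiated cells the enteroendocrine list summed to 652 and 2014 CPM, the goblet list to 389 and 1277, the enterocyte list to 22258 and 12830, and the tuft list itself to 16561 and 18249. Their part in the result was not tested. Bax stood at 68.5 CPM (316 UMIs) and 245 (375 UMIs), 3.58-fold (3.08 to 4.17). Gdf15 stood at 3.47 CPM (16 UMIs) and 31.4 (48 UMIs), 9.06-fold (5.05 to 17.1), and Aen at 4.77 (22 UMIs) and 31.4 (48 UMIs), 6.59-fold (3.90 to 11.5). Bbc3 stood at 6.72 CPM and 19.6, 2.92-fold (1.71 to 4.99), a level that stayed below that of adult enteroendocrine-like cells. Ei24 was 2.73-fold (2.04 to 3.64) and Perp 1.57-fold higher (1.28 to 1.92), the latter being under the call with TMM factors. Of the receptors, Tnfrsf10b stood at 2.82 (13 UMIs) and 13.1 CPM (20 UMIs), and Fas at 2.38 (11 UMIs) and 5.89 CPM (9 UMIs), whose ratio of 2.47 had an interval of 0.905 to 6.56 that spans no difference. Eda2r had 0 and 5 UMIs, at least 5.03-fold higher when 3 UMIs are set in place of 0, and Pmaip1 stood at 10.4 and 10.5 CPM.

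**Figure D4:**
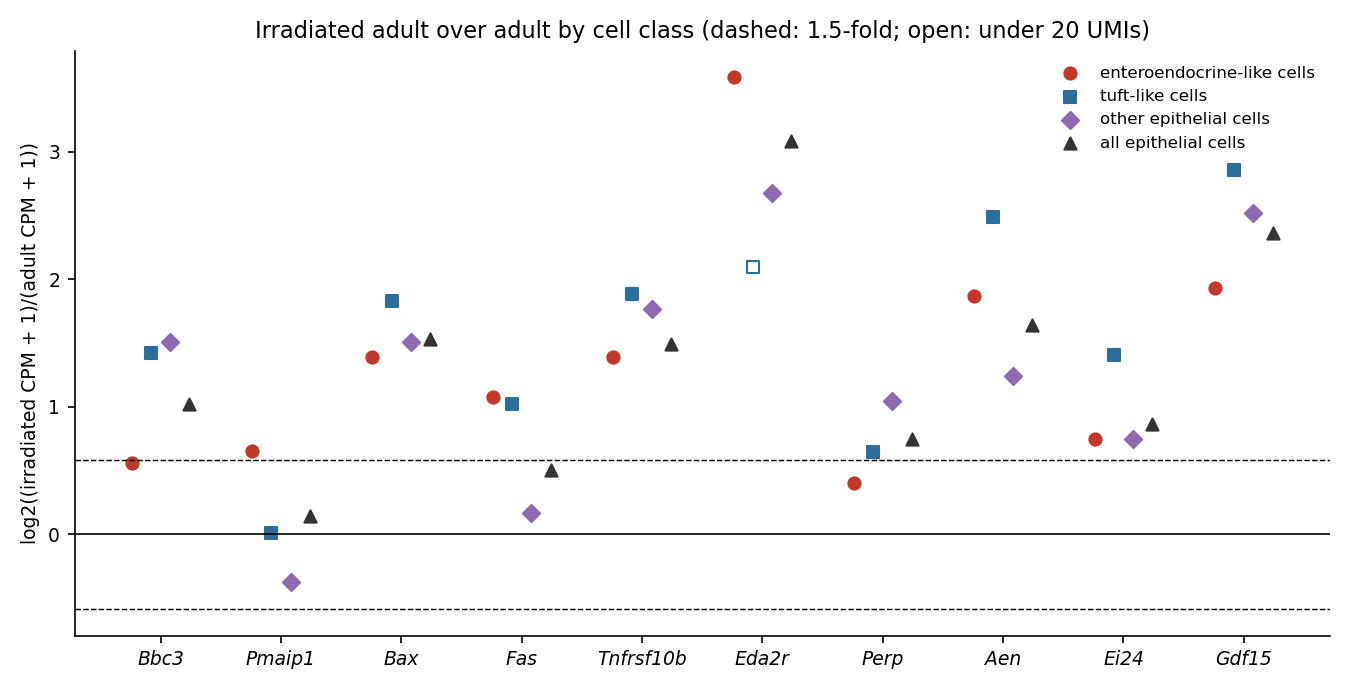
Log2 ratio of irradiated over adult, 1 CPM added, for each member in enteroendocrine-like, tuft-like, other and all epithelial cells. Dashed lines mark 1.5-fold and the open symbol a gene with under 20 UMIs. Bax, Tnfrsf10b, Eda2r, Aen, Ei24 and Gdf15 lie above the upper line in all 4 populations, and Pmaip1 lies between 0.65 and -0.37.

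In the 530 adult and 953 irradiated epithelial cells outside the enteroendocrine-like and tuft-like classes, 8 members were higher and 0 lower, where 17.3% of genes were higher and 23.6% lower. The classes within could be set side by side only with reserve, because the libraries filled them with different cells. Of 98 irradiated Paneth-like cells, all 98 joined the cluster led by defensin-related Gm14851 when both libraries were clustered together, but only 40 of 215 adult ones did and 166 joined a cluster led by Olfm4. Median depths were 2949 UMIs in the adult and 97751 in the irradiated cells. There 6 of 9 members with 20 UMIs were higher and 1 lower, where 8.18% of genes were higher and 37.9% lower. Bax stood at 37.0 and 69.9 CPM, Gdf15 at 6.12 and 39.8, Eda2r at 1.78 (7 UMIs) and 7.27 (53 UMIs), and Pmaip1 at 16.8 and 8.36. Of 94 irradiated cells named enterocyte-like, 81 fell in a cluster led by Anxa8 that held 0 adult cells, and all 59 adult ones fell elsewhere. By its own markers that cluster was named epithelial without a lineage, not enterocyte-like. Among all the named and unnamed classes of the 4 libraries, the 94 irradiated cells held the highest level of Bax (570.0 CPM), Aen (105), Gdf15 (171), Eda2r (20.3) and Perp (333). The adult enterocyte-like cells held 91.8, 4.42, 1.96, 0 and 105 CPM of the same genes, and Fas was lower in the irradiated cells, at 19.5 against 43.2 CPM. These differences are between different cells, and 8 members were higher and 1 lower where 39.3% of all genes were higher and 18.5% lower. All 15 genes of a G2/M (cell division) list were also higher in the irradiated enterocyte-like cells, with a median log2 ratio of 4.17.

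The members were next counted per cell, with every cell thinned to 2000 UMIs because depth differed. This left 2950 adult and 2548 irradiated epithelial cells, 647 and 483 being shallower. A Bax UMI was found in 16% of adult cells (exact 95% binomial interval 14.7 to 17.4) and 40.8% of irradiated ones (38.9 to 42.7), and in 34.8% at E12.5 and 39.2% at E17.5. Without thinning the adult and irradiated shares were 34.6% and 74.0%. A Gdf15 UMI was found in 1.97% (1.5 to 2.53) and 11% (9.84 to 12.3), and an Aen UMI in 2.07% (1.59 to 2.65) and 9.58% (8.46 to 10.8). An Eda2r UMI was found in 0 of 2950 adult cells, which allows a share of cells with a UMI of up to 0.102% when 3 cells are set in place of 0 (exact upper bound 0.125%), and in 50 of 2548 irradiated cells, 1.96% (1.46 to 2.58). For Pmaip1 the shares were 3.36% (2.74 to 4.07) and 4.36% (3.60 to 5.22). A type known to lack these genes was not among the classes. As a gauge of free RNA, the Paneth gene Defa24 stood at 2337 CPM in adult and 1250 in irradiated enteroendocrine-like cells.

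The number of members seen per cell was counted in the same thinned cells. Higher levels of single members raise this number by themselves, so it does not measure whether members occur together. At 2000 UMIs, 3 or more of the 10 were seen in 1.05% of adult cells (0.72 to 1.49), 9.65% of irradiated cells (8.54 to 10.9), 1.35% at E12.5 and 1.90% at E17.5. None was seen in 61.2% of adult and 31.0% of irradiated cells. Within irradiated enteroendocrine-like cells, those with a Bax UMI (741) and those without (965) were compared for the others. Gdf15 was seen in 13% (10.6 to 15.6) and 11.2% (9.27 to 13.4), Bbc3 in 10.1% (8.04 to 12.5) and 8.91% (7.19 to 10.9), and Aen in 11.7% (9.51 to 14.3) and 8.81% (7.10 to 10.8). Perp was seen in 22.7% (19.7 to 25.9) and 17.7% (15.4 to 20.3), and Ei24 in 16.3% (13.7 to 19.2) and 15.9% (13.6 to 18.3). Pmaip1 was seen in 5.26% and 4.15%, Eda2r in 2.97% and 1.97%, Fas in 0.54% and 1.04%, and Tnfrsf10b in 0.40% and 0.83%. The intervals of cells with and without a Bax UMI overlapped for each of the 9 other members, and these differences were not tested.

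**Figure D5:**
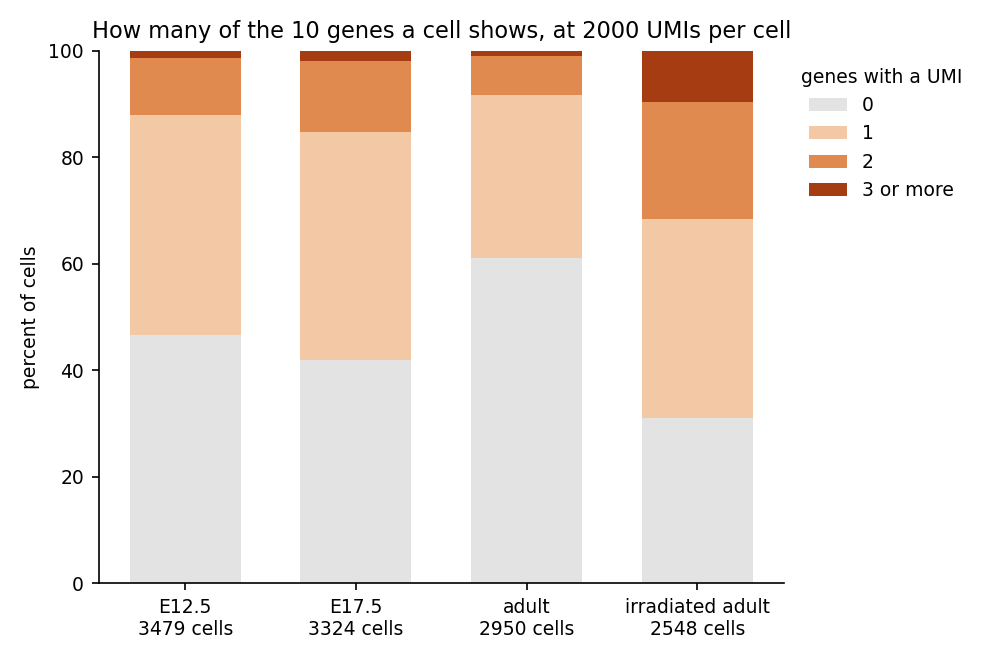
Share of epithelial cells, each thinned to 2000 UMIs, with a UMI of 0, 1, 2, or at least 3 of the 10 genes, for E12.5, E17.5, adult and irradiated adult cells. The share with 3 or more is 9.65% in the irradiated adult and between 1.05% and 1.90% in the other libraries.

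The rest of the death machinery was set beside the members in enteroendocrine-like cells, where 6.48% of all genes were higher and 8.6% lower. Among 9 tested genes for other BH3-only and pore-forming proteins, such as Bid, Bik and Bak1, 0 were higher and 0 lower. Among 9 protective genes of the BCL2 family and caspase inhibitors 0 were higher and 1 lower, Birc5, which encodes the mitotic protein survivin, at 8.79 and 0.84 CPM. Among 12 caspases and activators 1 was higher, Pidd1, itself a p53 target that activates caspase 2, at 1.19 (14 UMIs) and 3.21 CPM (61 UMIs). Among 9 tested genes of death receptor signalling 1 was higher, the receptor Tnfrsf21, at 18.3 and 33.2 CPM. The ligand gene Fasl had 0 UMIs in both libraries, and Eda, the gene of the ectodysplasin ligands, had 4 and 1. The median log2 ratios of these lists lay between 0.10 and 0.26, with 0.04 over all genes, and the members' at 1.23.

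The other branch of the p53 response was higher in part. In enteroendocrine-like cells 6.48% of 13462 genes tested were higher and 8.6% lower. Of 21 targets of arrest and feedback there, 12 were higher and 2 lower, with a median log2 ratio of 0.75. The highest were Phlda3, an inhibitor of AKT signalling (0.85 CPM with 10 UMIs, and 87.3 with 1660), Ccng1, which encodes cyclin G1 (17.2 and 161 CPM), and Psrc1, a spindle protein (0.43 CPM with 5 UMIs, and 6.84 with 130). The lower ones were Ckap2 (2.47 and 1.05 CPM) and Sesn1 (18.7 and 11.4 CPM). Among p53 and its regulators 1 of 9 was higher, Mdm2, the ubiquitin ligase of p53 and also its target (51.7 and 87.9 CPM), and 1 lower, the kinase gene Atr (12.2 and 6.26 CPM). Of the integrated stress response, which can also switch on Bbc3, Pmaip1 and Gdf15, 2 of 11 were higher, Psat1 (2.99 and 11.2 CPM) and Sesn2 (18.8 and 38.1 CPM), and 1 was lower, Phgdh (2.05 and 0.74 CPM). In tuft-like cells 3 of its 7 tested genes were higher, against 13.6% of all genes, and 0 lower. In other epithelial cells 6 of 11 were higher, against 17.3%, and over all epithelial cells 4 of 12, against 8.06%, with 0 lower in either. Of 12 genes that respond to cell dissociation 0 were higher and 0 lower in enteroendocrine-like cells, and in tuft-like cells 5 were higher and 2 lower. All 13 tested of 15 G2/M genes were lower in enteroendocrine-like cells, the list summing to 56.4 and 11.8 CPM. Among them was Cdk1, the kinase of mitotic entry (5.12 and 0.53 CPM).

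Across the 69 clusters of at least 50 cells in the 4 libraries, the genes whose log2(CPM + 1) followed a member most closely were found for each. These correlations describe clusters that share libraries and depth. Eda2r went with Ccng1 (Pearson r 0.88) and Fam212b (0.88), and Bbc3 with Sesn2 (0.81) and Trp53inp1 (0.79), 3 of these 4 being on the arrest and feedback list. The closest genes of the other members, which follow, were not on that list. Bax went with Bud31 (0.77) and Polr2g (0.75), Aen with Plp2 (0.81) and Rpl10 (0.80), and Ei24 with 1110012L19Rik (0.80) and Plekha3 (0.80). Perp went with Tmprss4 (0.82) and Prr15l (0.82), Gdf15 with Muc3a (0.79) and Tac1 (0.78), and Fas with Gsta1 (0.71) and Xdh (0.70). Pmaip1 went with Irf8 (0.76) and Ifi27l2b (0.76), and Tnfrsf10b with Traf2 (0.63) and Anxa3 (0.63). Among the members themselves r ran from -0.17 for Pmaip1 with Ei24 to 0.73 for Bax with Ei24.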

How the data were processed

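The authors deposited, per the file headers, raw UMI counts per gene and barcode. Per the submitters' processing notes, reads were processed with Cell Ranger 3.1.0 on mm10. Their rule for keeping barcodes is not given in the sources used here. The 10 members and the gene lists were chosen with earlier results of these data known.

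The filter on cells required 500 genes or more and a mitochondrial share of UMIs no higher than 20%. The highest Scrublet scores (scanpy 1.11.5) were removed as doublets, 0.8% per 1000 barcodes. Each library was clustered alone (2000 variable genes without the members and the 21 arrest and feedback genes, 30 principal components, 20 neighbours, Leiden resolution 1, leidenalg 0.10.2). Clusters were named from 17 marker lists, with a mean scaled marker score of at least 0.5 and at least 3 markers at 50 CPM. Naming thresholds were revised after the clusters had been seen, and classes rebuilt this way may differ from the study's own. At E17.5, 934 non-epithelial cells were left out.

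Counts were summed per library and class and given as CPM, with exact Poisson or Clopper-Pearson 95% intervals, and compared without a test. All members are named. From each list, up to 3 genes in each direction past the fold were named, and for each member the 2 genes with the closest pattern among those with 200 UMIs. The fold rule was tried on simulated Poisson counts drawn from the adult enteroendocrine-like sums. It called 0.203% of unchanged genes higher and 0.226% lower, and 90% of genes simulated at 2-fold higher. The simulation held no spread between animals or libraries, so it cannot show how often the rule calls unchanged genes between real libraries. Gene positions came from GENCODE M21, which held 99.9% of the listed IDs. TMM factors were from edgeR 4.0.16.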

Additional observations from a re-analysis of the deposited data

Results flagged for a closer look

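Pmaip1 went opposite ways in 2 classes of the adult libraries. In enteroendocrine-like cells it was higher after irradiation, at a log2 ratio of 0.65, and in Paneth-like cells it was lower, at -0.93 (16.8 and 8.36 CPM, 66 and 61 UMIs). The difference between the classes was not tested, with 1 library on each side. The Paneth-like classes held mostly different clusters and depths, and the median of all genes there was -0.39.

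Barcodes left out for more than 20% mitochondrial UMIs carried the members too. In the 1865 such barcodes of the irradiated library the 10 members summed to 463 CPM (448 to 477), above the 186 (175 to 198) of the 1254 such barcodes of the adult library. Eda2r had 50 UMIs in the former and 0 in the latter. Within the irradiated library the summed level was 639 CPM in barcodes of up to 5% mitochondrial UMIs, 964 from 5% to 10%, 743 from 10% to 20% and 463 above. These levels count mitochondrial UMIs in the total, which lowers them most in the barcodes above 20%. With mitochondrial UMIs left out of the total, the same bins stood at 657, 1038, 865 and 685 CPM. The barcodes above 20% were then no longer the lowest.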

How the results depend on the processing

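The alternatives were every deposited barcode, stricter cells, doublets kept, other resolutions, joint clustering, other scalings, pseudocounts and minimums, and 3 chosen after seeing the data (first cluster names, cells of 3000 to 10000 UMIs, irradiated cells without an eGFP UMI). Over all epithelial cells 8.06% of genes were higher at the main setting. There the count of higher members stayed within 1.5 times of 8 under each alternative. In enteroendocrine-like cells it ran from 5, with a pseudocount of 10 CPM (1.66% of genes higher), to 10, when CPM were averaged over cells (13.7% of genes higher). In tuft-like cells it was 8, and 3 with 1000 genes and 10% mitochondrial UMIs (18.3% of genes higher), 3 in cells of 10% mitochondrial UMIs or less (17.7%), 3 with at least 100 UMIs (7.35%) and 5 in cells thinned to 2000 UMIs (14.9%), settings that leave fewer members with enough UMIs. No member was called lower in these 3 populations under any alternative. In enteroendocrine-like cells Bbc3 was under the call in 12 of 17 alternatives, Perp in 14 and Pmaip1 in 5. Over all epithelial cells Pmaip1 was under it in 15, Fas in 14, Tnfrsf10b in 1 and each other member in 0. The sign of the log2 ratio changed only for Pmaip1, in tuft-like cells (lowest -1.25) and in all epithelial cells (-0.26 in cells of over 10% mitochondrial UMIs). No paired analysis was possible because each group has 1 library and the labels tie no animal to 2 of them.

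Depth and design limit these results. Fas, Tnfrsf10b and Eda2r rest on few UMIs in unirradiated cells. Each group is 1 library, so irradiation, animal, sort and library cannot be told apart. Bax and Ei24 overlap other genes, and how strand was used in counting is not given in the sources used here.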
